A study of Mus musculus with 8 samples.

Results

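The Schlafen genes of the mouse were followed here across untreated, IFN-λ2 treated and IFN-β treated intestinal epithelial cells. The members were taken as every array probe whose gene name in the scanner files is Slfn1, Slfn2, Slfn3, Slfn4, Slfn5, Slfn8, Slfn9 or Slfn10. This gave 10 of the 39429 non-control probes for 8 of 31791 gene names. Of these, 9 probes carried a listed name and 1 was listed as Slfn10-ps, the current symbol of which Slfn10 is a synonym in RefSeq. Slfn8 and Slfn9 had 2 probes each and the other 6 genes had 1.

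The cells were IEC10, a line of intestinal epithelial cells derived from a transgenic mouse that carries firefly luciferase under the Mx2 promoter, and all groups share this transgene. They were kept on transwell inserts for 21 days and then left untreated (2 arrays, replicates 2 and 3) or stimulated for 9 h with IFN-λ2 at 20 ng/mL (3 arrays) or with IFN-β at 500 U/mL (3 arrays). RNA of each sample was labelled with Cy3 and hybridized to a 1-color Agilent whole mouse genome array. The doses of the cytokines are in different units. According to the study's text, both gave a submaximal induction of the Mx2 gene in these cells, and whether they are matched for the Schlafen genes was not tested. The labels do not say whether replicates came from separate cultures, and p-values therefore measure only the spread between these arrays, which may be technical. Arrays with the same replicate number shared a slide, on which control, IFN-λ2 and IFN-β took fixed positions, so that position and treatment cannot be told apart.

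Schlafen genes were found as growth regulators of thymocytes and are named after the German word for sleep. Their proteins share a core domain, and several members bind or cleave transfer RNA. Short members such as Slfn1 and Slfn2 consist of little more than this core, Slfn3 and Slfn4 are of intermediate length, and Slfn5, Slfn8, Slfn9 and Slfn10 belong to the long members with a helicase-like part at the C terminus. Many of them are interferon-stimulated genes, that is, genes transcribed once IFN-β has bound Ifnar1 and Ifnar2 or IFN-λ has bound Il28ra and Il10rb, and kinases of the Jak family are switched on. A complex that contains Stat2 and Irf9 then binds interferon-stimulated response elements (ISRE), whose core is a repeat of the letters GAAA.

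The 250 bases before the annotated transcript start are shown for Slfn2, Slfn4 and Slfn8, whose signal is described between groups below, and for Slfn5 and Slfn9, whose promoters like that of Slfn8 held the ISRE core, because the promoter is where the complex would bind. A promoter of Slfn10 was not analysed here. They are RefSeq sequences of GRCm38.p6, given 5′ to 3′ on the strand of the gene. Capitals mark the IRF core AANNGAAA and the ISRE core GAAANNGAAA on either strand, so that TTTC runs in capitals are matches on the other strand.
Slfn2, chr11:83064862-83065111, plus strand: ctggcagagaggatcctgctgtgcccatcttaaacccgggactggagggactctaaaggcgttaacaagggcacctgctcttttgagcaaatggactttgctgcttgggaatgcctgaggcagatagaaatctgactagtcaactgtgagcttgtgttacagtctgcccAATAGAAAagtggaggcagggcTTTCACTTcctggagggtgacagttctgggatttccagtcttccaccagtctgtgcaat
Slfn4, chr11:83174936-83175185, plus strand: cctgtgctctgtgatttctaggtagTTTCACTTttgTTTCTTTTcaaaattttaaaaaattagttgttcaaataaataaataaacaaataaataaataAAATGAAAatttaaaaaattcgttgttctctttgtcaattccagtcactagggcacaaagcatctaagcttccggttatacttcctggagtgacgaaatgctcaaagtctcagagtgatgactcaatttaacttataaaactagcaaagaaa
Slfn5, chr11:82951852-82952101, plus strand: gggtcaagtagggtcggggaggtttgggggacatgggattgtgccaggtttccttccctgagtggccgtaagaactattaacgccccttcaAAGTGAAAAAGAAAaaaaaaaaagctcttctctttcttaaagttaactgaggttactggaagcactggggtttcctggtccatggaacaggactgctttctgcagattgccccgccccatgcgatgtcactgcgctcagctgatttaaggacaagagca
Slfn8, chr11:83020811-83021060, minus strand: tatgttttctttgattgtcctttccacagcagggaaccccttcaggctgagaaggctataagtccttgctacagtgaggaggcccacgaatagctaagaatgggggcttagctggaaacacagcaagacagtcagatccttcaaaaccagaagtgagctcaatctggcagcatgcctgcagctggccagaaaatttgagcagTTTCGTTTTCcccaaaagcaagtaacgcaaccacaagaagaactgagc
Slfn9, chr11:82991831-82992080, minus strand: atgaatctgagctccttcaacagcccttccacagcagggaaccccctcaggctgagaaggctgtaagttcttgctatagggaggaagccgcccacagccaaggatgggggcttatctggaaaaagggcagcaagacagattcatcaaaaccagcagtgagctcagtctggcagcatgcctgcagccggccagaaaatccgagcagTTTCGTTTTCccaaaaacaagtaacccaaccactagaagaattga

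The ISRE core was searched on both strands from 250 bases before to 50 bases after the start, and 3.44% of 32851 mouse promoter windows of that length held it. Among the members it was found in Slfn5, from 155 to 146 bases before the start, in Slfn8, from 48 to 39 bases before the upstream one of 2 annotated starts, and in Slfn9, from 45 to 36 bases before the start. In Slfn8 and Slfn9 the matched letters were the same, GAAAACGAAA, and 206 of 242 aligned bases (85.1%) before their starts were identical. The shorter IRF core, which can overlap the ISRE core and was present in 23.9% of all windows, was found in every member with a promoter sequence, namely 3 times in Slfn4, 2 times each in Slfn2 and Slfn5 and 1 time each in Slfn1, Slfn3, Slfn8 and Slfn9. Matches describe letters in these windows and not sites of binding.

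**Figure D1:**
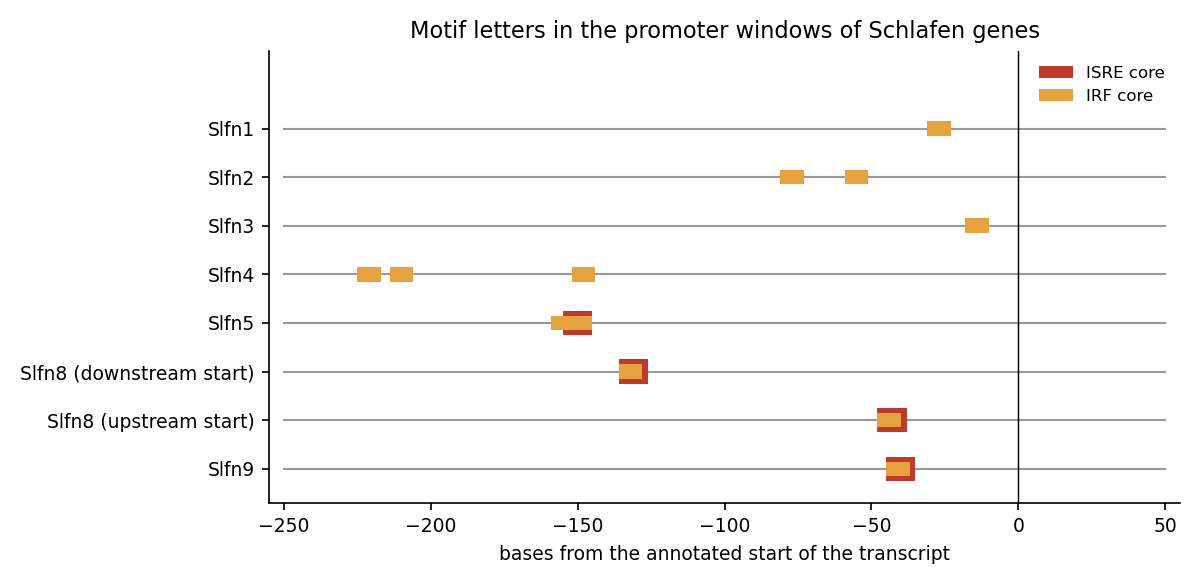
Positions of the ISRE core (red) and of the IRF core (orange, drawn thinner on top) in the promoter windows of 7 Schlafen genes, in bases from the annotated start, which is the vertical line at 0. The ISRE core is seen in Slfn5, Slfn8 (at 2 annotated starts of that gene) and Slfn9, and Slfn4 holds 3 IRF cores.

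Signals are given in normalized gPS units, that is, the processed signal of the scanner software after scaling each array to a 75th percentile of 1500, and values under 15 were set to 15. The scale has no unit of mass and depends on the probe, so that levels were compared between arrays and not between probes. Probes above 15 on at least 2 arrays were tested with limma, which holds for 25967 probes in all and for 6 of the 10 Schlafen probes. Of the latter, 5 were well above background on all 8 arrays. Markers of the tissue were checked first. Of 9 epithelial markers 8 were well above background on all arrays, among them Epcam, Cdh1 and Krt18. Of 12 genes of enterocyte differentiation, Dpp4, Lct, Vil1 and Fabp2 were well above background on all arrays, while Cdx2, a transcription factor of the intestinal lineage, Akp3 and Slc5a1 were at 15 on all arrays. Of 15 leukocyte markers, 6 were well above background on all arrays, namely Cd3e, Cd4, Itgam, Csf1r, Cd68 and Coro1a. Another 4, namely Cd3g, Cd8a, Itgax and Laptm5, were at 15 throughout. The pan-leukocyte gene Ptprc did not exceed 43.5 units. The summed signal of the leukocyte markers was 11894 to 15629 in control, 9566 to 11759 after IFN-λ2 and 10391 to 17595 after IFN-β, and that of the epithelial markers was 314035 to 331855, 359751 to 380888 and 317988 to 362518. Their part in the results was not tested.

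Compared with control cells, Slfn2, Slfn8 and Slfn10 were higher after IFN-λ2, and Slfn2 and Slfn10 were higher after IFN-β. Slfn2 was also higher after IFN-λ2 than after IFN-β. Slfn2 kept its calls under every alternative run, whereas that of Slfn8 after IFN-λ2 was lost under 9 of 19 alternatives and that of Slfn10 after IFN-β under 11 of 19, among them the replicate block in both. Slfn4 was above the threshold of 15 on the IFN-λ2 arrays alone. It was tested only through those arrays, and is therefore left out of the counts and medians that follow. No Schlafen probe was lower in any comparison. Of the 5 probes well above background on all arrays, 3 passed at an adjusted p under 0.05 (limma, Benjamini-Hochberg) as higher after IFN-λ2, where 10.0% of all tested probes were higher and 8.55% lower. After IFN-β 2 of the 5 passed as higher, where 1.44% of all tested probes were higher and 0.208% lower. Between IFN-λ2 and IFN-β 1 of the 5 passed as higher after IFN-λ2, against 5.53% of all tested probes higher and 5.68% lower. Among the 20265 tested probes that were likewise well above background on all arrays, 11.5%, 1.63% and 5.95% were higher in the 3 comparisons. The calls of the 5 probes also reached a 2-fold difference, as 2.67%, 0.882% and 1.44% of all tested probes did in the higher direction. The median log2 difference of the 5 probes was 2.41, 1.59 and 0.70, whereas over the 20265 probes it was 0.01, 0.02 and -0.0063. In bulk RNA, fewer cells that express a gene and less RNA per cell cannot be told apart.

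**Figure D2:**
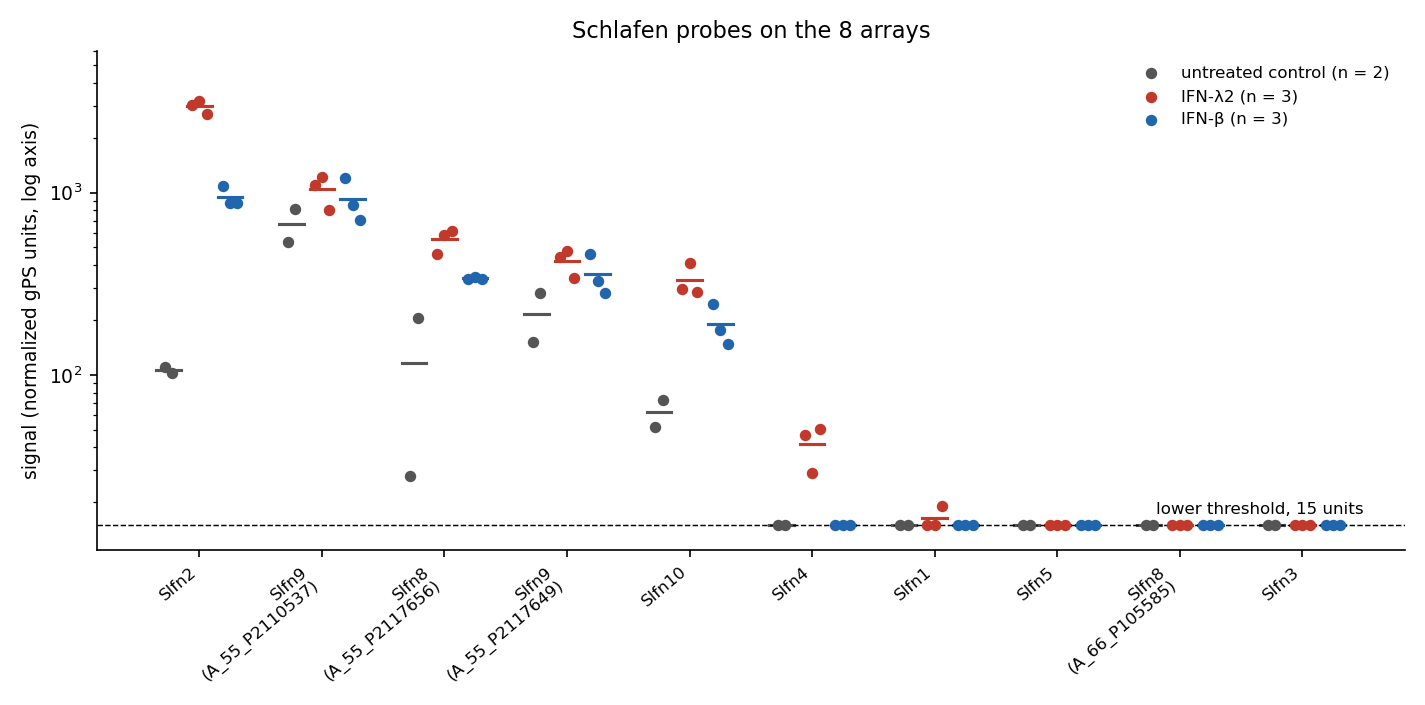
Signal of each of the 10 Schlafen probes on the 8 arrays, on a log axis in normalized gPS units. Points are arrays, short bars are group means and the dashed line is the lower threshold of 15. The IFN-λ2 arrays of Slfn2 lie between 2684 and 3194 units and its control arrays at 102 and 110, while Slfn1, Slfn3, Slfn5 and 1 probe of Slfn8 lie at or near the threshold. Heights of different probes are not comparable.

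Slfn2 belongs to the short members and keeps T cells quiescent, and its protein binds transfer RNA and shields it from cleavage. Its probe, A_51_P423578, lies at chr11:82883791-82883850 on the plus strand (mm9). The signal was 110 and 102 units in the control arrays. After IFN-λ2 it was 3038, 3194 and 2684 units, and after IFN-β it was 1082, 873 and 872 units. The groups did not overlap, every IFN-λ2 array was above every IFN-β array and every IFN-β array was above both control arrays. The group means were 106 ± 5.66 (SD, n = 2), 2972 ± 261 (n = 3) and 942 ± 121 (n = 3). This was a 27.9-fold increase after IFN-λ2 (log2 difference 4.80, 95% CI 4.50 to 5.10, adjusted p = 2.4e-06) and an 8.82-fold increase after IFN-β (3.14, 2.84 to 3.44, adjusted p = 2e-05). The signal after IFN-λ2 was 3.16-fold that after IFN-β (1.66, 1.39 to 1.93, adjusted p = 0.00045). On the slides of replicates 1, 2 and 3 alone this last difference was 1.49, 1.87 and 1.62. On the authors' deposited scale, which is a constant factor lower on each array, the corresponding signals were 94 to 101, 2472 to 2955 and 797 to 983 units.

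Slfn10, listed as Slfn10-ps, is a long member that is annotated as a pseudogene in RefSeq. Its probe, A_55_P2135200, lies at chr11:82842116-82842175 on the minus strand (mm9). The signal was 51.7 and 72.9 units in control, 298, 409 and 283 units after IFN-λ2 and 244, 177 and 147 units after IFN-β. All stimulated arrays were above both control arrays, and the lowest IFN-λ2 array was above the highest IFN-β array. The increase was 5.30-fold after IFN-λ2 (log2 difference 2.41, 95% CI 1.78 to 3.04, adjusted p = 0.0015). After IFN-β it was 3.01-fold (1.59, 0.96 to 2.22, adjusted p = 0.039). IFN-λ2 and IFN-β differed by 0.81 (0.25 to 1.38, adjusted p = 0.077), which did not pass. The call after IFN-β was lost with the replicate number as a block (log2 difference 1.52, adjusted p = 0.20). It was also lost without any single array other than IFN-λ2 replicate 2, with adjusted p from 0.051 without IFN-β replicate 3 to 0.19 without control replicate 2, and it held at 0.049 without IFN-λ2 replicate 2. Without IFN-β replicate 1, the difference between IFN-λ2 and IFN-β was 1.01 and passed (adjusted p = 0.047). With all arrays it also passed with the normexp background correction (adjusted p = 0.031), a lower threshold of 50 units (adjusted p = 0.043) and a variance prior with trend (adjusted p = 0.045). Without any other single array it was 0.65 to 0.91 and did not pass, with adjusted p up to 0.21 without IFN-β replicate 3, nor did it pass with the replicate block (adjusted p = 0.15).

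Slfn8 is a long member that has been studied in T cells. Its 2 probes went separate ways. Probe A_66_P105585, at chr11:82830985-82831044 (mm9), was at 15 on all 8 arrays. Probe A_55_P2117656, at chr11:82815804-82815863 on the minus strand (mm9), gave 28.0 and 205 units in control, 458, 589 and 615 units after IFN-λ2 and 336, 343 and 335 units after IFN-β. Both stimulated groups were above both control arrays and did not overlap each other. The 2 control arrays differed 7.31-fold, a gap that exceeded that of 99.97% of the 20267 probes well above background on all arrays, whose median gap was 1.11-fold. The difference between IFN-λ2 and control was 2.86 (log2, 95% CI 1.17 to 4.55, adjusted p = 0.034). After IFN-β it was 2.16 (0.47 to 3.85, adjusted p = 0.29), and between IFN-λ2 and IFN-β it was 0.70 (-0.81 to 2.21, adjusted p = 0.55).

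The value of Slfn8 depended on which control array was used. With 1 control array left out, the remaining one has no spread of its own, and the fit takes that of the other groups, so that the p-values below do not hold the gap between the controls. Without control replicate 2, the IFN-λ2 difference was 1.423 (adjusted p = 0.0078) and the IFN-β difference 0.72 (adjusted p = 0.18). Without control replicate 3, they were 4.29 (adjusted p = 0.00013) and 3.59 (adjusted p = 0.00038). The difference between IFN-λ2 and IFN-β, 0.70, passed when control replicate 2, control replicate 3 or both were left out of the fit (adjusted p = 0.023 each time). On the slides of replicates 1, 2 and 3 it was 0.45, 0.78 and 0.88. The call after IFN-λ2 was lost when any of the 6 stimulated arrays was left out, with adjusted p from 0.052 without IFN-β replicate 2 to 0.090 without IFN-λ2 replicate 3. It was also lost with the replicate number as a block (2.92, adjusted p = 0.065). On the slides of replicates 2 and 3, the IFN-λ2 difference was 4.39 and 1.58.

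Slfn9 is a long member that lies next to Slfn8. Its 2 probes lie side by side, A_55_P2110537 at chr11:82793812-82793871 and A_55_P2117649 at chr11:82793914-82793973, on the minus strand (mm9). The former gave 534 and 812 units in control, 1100, 1218 and 803 units after IFN-λ2 and 1204, 858 and 708 units after IFN-β. The groups overlapped. The latter gave 151 and 282 units in control, 444, 477 and 338 units after IFN-λ2 and 461, 329 and 280 units after IFN-β, so that all 3 IFN-λ2 arrays and 2 of the 3 IFN-β arrays lay above both control arrays. The log2 differences from control were 0.64 (95% CI -0.05 to 1.33, adjusted p = 0.18) and 1.01 (0.26 to 1.76, adjusted p = 0.071) after IFN-λ2. After IFN-β they were 0.45 (-0.24 to 1.14, adjusted p = 0.61) and 0.76 (0.0047 to 1.51, adjusted p = 0.41). IFN-λ2 and IFN-β differed by 0.19 (-0.43 to 0.80) and 0.25 (-0.42 to 0.93). None passed, although the intervals include increases of more than 2-fold after either cytokine. Without control replicate 3, the IFN-λ2 difference of A_55_P2117649 was 1.46 and passed (adjusted p = 0.042), with the spread of the single control array taken from the other groups. Without control replicate 2 it was 0.56 (adjusted p = 0.30). With all arrays it passed with a lower threshold of 50 units (adjusted p = 0.039) and with a variance prior with trend (adjusted p = 0.045). Over the 8 arrays, the log2 signals of the 2 Slfn9 probes had a Pearson's r of 0.967.

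The probes of Slfn8 and Slfn9 can share target sequence. Where A_55_P2117656 and A_55_P2117649 overlap, 36 of 48 bases are identical, with a run of 19 bases without a difference. The 30 bases below show the most alike stretch, bases 1 to 30 of the Slfn8 probe and 13 to 42 of the Slfn9 probe, with the 2 bases that differ in capitals.
Slfn8 probe: gaaggacataaAtaaTtcccttaaagaaat
Slfn9 probe: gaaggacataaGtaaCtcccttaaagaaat
Hybridization of transcripts of each gene to the probe of the other was not tested, and the signals of these 2 probes are therefore uncertain as measures of a single gene. Across the 8 arrays their log2 signals had a Pearson's r of 0.883. No other pair of Schlafen probes shared a run of more than 9 bases.

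Slfn4 is expressed in cells of the myeloid lineage, where it is known to change with activation. Its probe, A_51_P183812, lies at chr11:83002974-83003033 on the plus strand (mm9). The signal was at 15 in both control arrays and in all 3 IFN-β arrays. After IFN-λ2 it was 46.5, 28.9 and 50.3 units, well above background on 2 of the 3 arrays. All IFN-λ2 arrays were thus above all other arrays. The equal values of control and IFN-β come from the threshold. With no lower threshold, IFN-β differed from control by 1.69 (log2, limma adjusted p = 0.040), on arrays that were not well above background. This probe entered the test only through the IFN-λ2 arrays, in which it had to be higher, so that no p-value is given for its IFN-λ2 differences. Since control and IFN-β arrays were not well above background, no fold is given from their values. The mean IFN-λ2 signal of Slfn4 was instead set against the lowest signal that each dim array measured well above background. It was 2.31-fold that level for control and 1.95-fold for IFN-β. These ratios are not strict lower bounds, since the mean includes IFN-λ2 replicate 2. Its 28.9 units were not well above background, and the lowest such signal on that array was 33.1 units. The myeloid markers Itgax and Laptm5 were at 15 on all arrays, Itgam had group means of 7122 units in control, 2870 after IFN-λ2 and 6710 after IFN-β, and Csf1r of 5170, 6394 and 5615. Neither of the latter 2 passed in any comparison. Emr1 had group means of 15, 16.2 and 15.7 units, and Lyz2 of 15, 17.3 and 15 units, well above background on 1 array. Of the 9 leukocyte markers tested, Coro1a, an actin-binding protein, alone passed, with log2 differences of -0.57 between IFN-λ2 and control (adjusted p = 0.015) and -0.50 between IFN-λ2 and IFN-β (adjusted p = 0.022). Cd68, a macrophage gene, had a difference of 0.43 between IFN-λ2 and control (adjusted p = 0.075).

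Slfn1, Slfn3 and Slfn5 stayed at or near the threshold. Slfn1, which arrests the growth of T cells, was at 15 on 7 arrays and at 19.2 units, well above background, on the array of IFN-λ2 replicate 3. Slfn3, which has been linked to the differentiation of rodent enterocytes, and Slfn5, a long nuclear member, were at 15 on all 8 arrays. No fold is given for these genes, and the values at 15 are below what the arrays measured rather than a sign of absence. In mm9 the probes lie at chr11:82774907-82774966 (Slfn5, A_66_P128525), chr11:82935656-82935715 (Slfn1, A_52_P425890) and chr11:83028431-83028490 (Slfn3, A_51_P228768), on the plus strand.

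**Figure D3:**
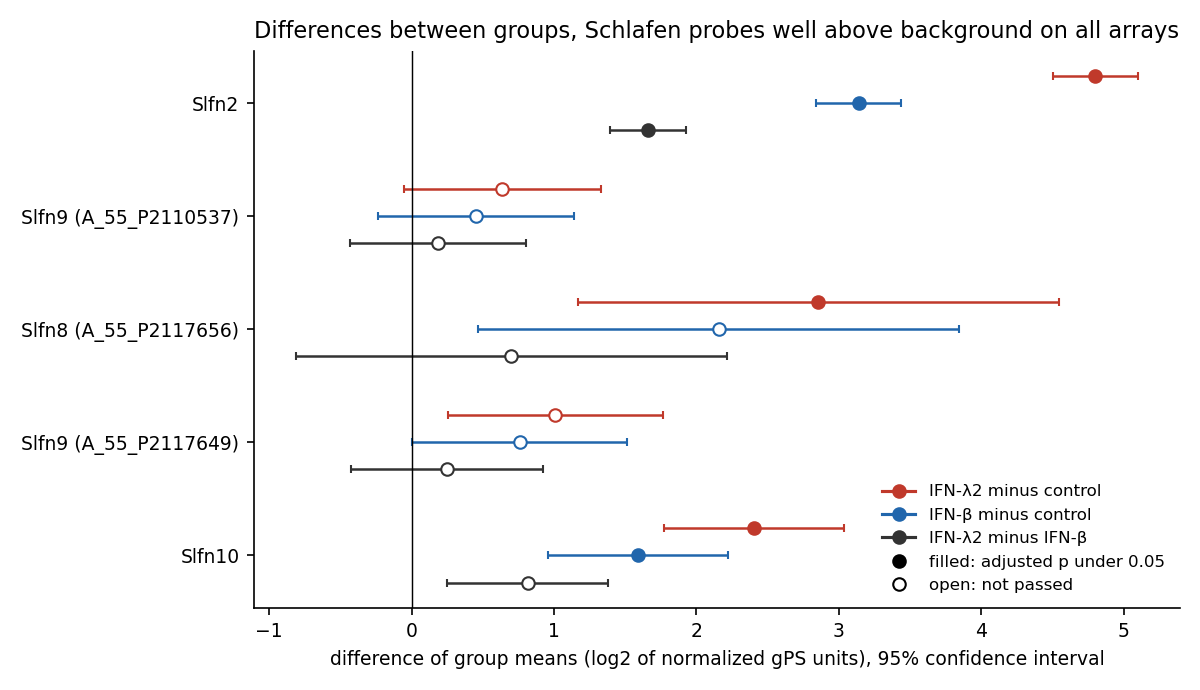
Log2 differences of group means with 95% confidence intervals for the 5 Schlafen probes well above background on all arrays, IFN-λ2 minus control in red, IFN-β minus control in blue and IFN-λ2 minus IFN-β in black. Filled points passed at an adjusted p under 0.05. The intervals of Slfn2 are the narrowest and lie far from 0, that of Slfn8 after IFN-λ2 reaches from 1.17 to 4.55.

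Other probes that the array design describes as schlafen were looked at after the values were seen, and they are not members. LOC631406 (A_55_P1957353), described as similar to Slfn8 and without a map position, gave 45.5 and 22.1 units in control, 667, 764 and 864 units after IFN-λ2 and 433, 477 and 461 units after IFN-β. The differences from control were 4.58 (adjusted p = 0.00010) and 3.85 (adjusted p = 0.00043), and that between IFN-λ2 and IFN-β was 0.74 (adjusted p = 0.12). The 2 control arrays stood in the opposite order to those of the Slfn8 probe. LOC640793 did not exceed 17.2 units, was well above background on no array and passed in no comparison. Gm11427, Slfn14-ps and Slfnl1 were at 15 on all arrays.

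The probes of the 8 members span 253584 bases of chromosome 11, from 82774907 to 83028490 (mm9), and the differences were set along the chromosome to see whether the genes around them differed too. Gm11427 and Slfn14-ps, described as schlafen and at 15 on all arrays, lie within 500 kb and are not counted here. Apart from them, 38 further probes for 33 genes lie within 500 kb on either side, and 24 of these probes were tested. After IFN-λ2 3 of these were higher than control and none lower, after IFN-β none passed, and 3 were higher after IFN-λ2 than after IFN-β, where 10.0%, 1.44% and 5.53% of all tested probes were higher. The median log2 difference of the 24 was 0.22, 0.07 and 0.13. The 3 were Ccl6 and Ccl9, chemokines of myeloid cells, and 1 probe of Rffl, a ubiquitin ligase. The Ccl9 probe was well above background on 3 of the 8 arrays. Ccl6 had group means of 61.2 units in control, 229 after IFN-λ2 and 73.0 after IFN-β, a log2 difference from control of 1.90 (adjusted p = 5.3e-05) after IFN-λ2 and 0.25 (adjusted p = 0.39) after IFN-β. The tested probes next to Slfn9 and to Slfn4 in this order, 1190001M18Rik and A_55_P2086393, passed in no comparison.

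**Figure D4:**
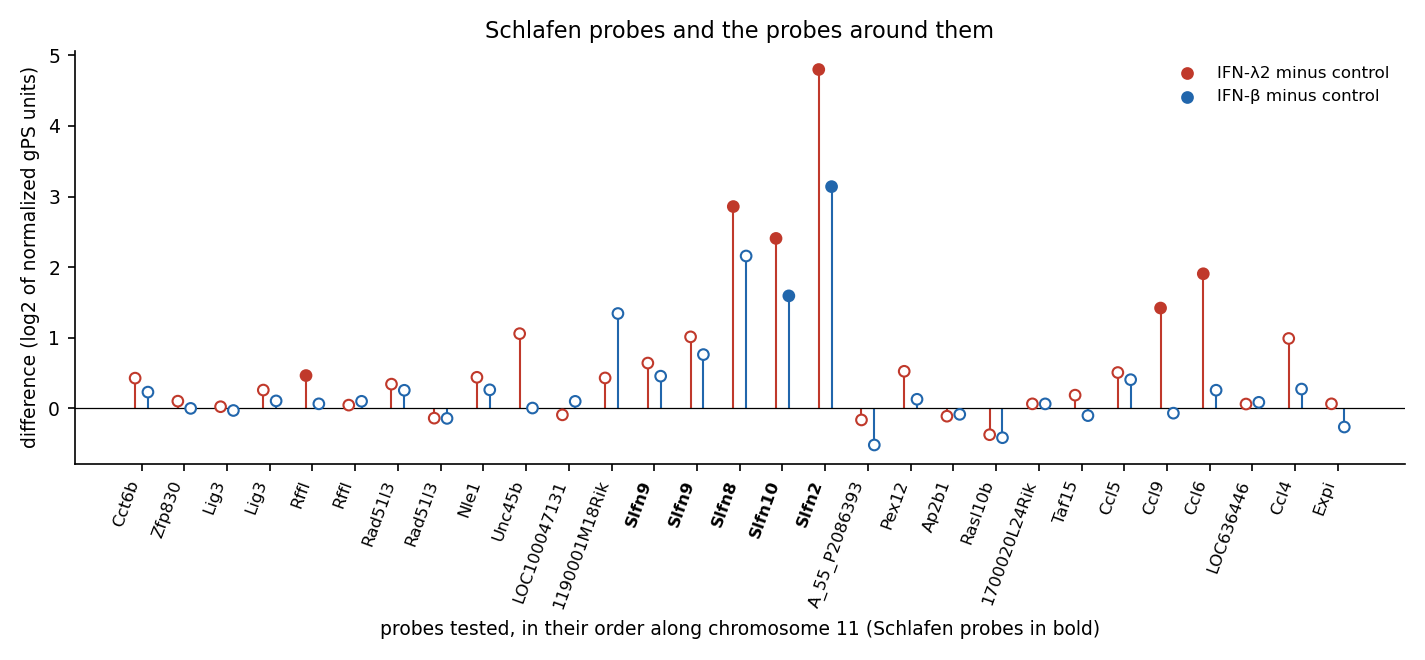
Log2 differences from control after IFN-λ2 (red) and IFN-β (blue) of the 5 Schlafen probes well above background on all arrays (bold) and of the 24 tested probes within 500 kb, in their order along chromosome 11 and not to scale. Filled points passed at an adjusted p under 0.05. The differences of Slfn10 and Slfn2 exceed those of the neighbouring probes, among which Ccl6 reaches 1.90 after IFN-λ2. Those of Slfn8 do so with both control arrays, but without control replicate 2 they are 1.423 and 0.72.

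The other genes of the pathway were read from lists ordered by role, with the probe of the highest mean signal for each gene. Their counts stand beside the shares of all tested probes given above, of which 10.0%, 1.44% and 5.53% were higher and 8.55%, 0.208% and 5.68% lower in the 3 comparisons. Of the 6 receptor chains and kinases, Ifnar1, Ifnar2, Il28ra, Il10rb, Jak1 and Tyk2, none passed in any comparison. Of 9 transcription factors, 5 were higher after IFN-λ2 and 4 after IFN-β, and none passed between the cytokines, where Irf1 at 0.27 (adjusted p = 0.051) and Stat2 at 0.43 (adjusted p = 0.052) came closest. For Irf9 the log2 difference was 1.99 after IFN-λ2 (adjusted p = 6.5e-06) and 1.93 after IFN-β (adjusted p = 1.1e-05), and it was 0.06 between them (adjusted p = 0.62). Of the 10 OAS genes well above background on all arrays, which sense viral RNA, 9 were higher after IFN-λ2, 8 after IFN-β and 3 after IFN-λ2 than after IFN-β, with median log2 differences of 3.24, 2.83 and 0.18. Oas1g was at 15 in control and is left out here. Oas2 had the largest difference between the cytokines among these, 1.38 (adjusted p = 0.0014). All 3 IFIT genes, which bind foreign RNA, were higher after both cytokines, and 2 of them were higher after IFN-λ2 than after IFN-β, with Ifit1 at 0.71 (adjusted p = 0.0024).

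Among 7 negative regulators, Socs1, Usp18 and Isg15 were higher after both cytokines. Socs3 was lower after IFN-λ2, by 0.71 below control (adjusted p = 0.0018) and by 0.48 below IFN-β (adjusted p = 0.0087). Among 9 tested genes that act on translation or transfer RNA, the biology closest to that of Slfn2, IFN-λ2 left 4 higher and 1 lower than control, and IFN-β left 3 higher. Eif2ak2, the kinase PKR, differed from control by 2.12 after IFN-λ2 and by 2.08 after IFN-β, and Eif2ak3 fell by 0.42 after IFN-λ2 (adjusted p = 0.015). Angiogenin (Ang), the nuclease that cuts transfer RNA under stress, had a log2 difference of -0.35 between IFN-λ2 and IFN-β (adjusted p = 0.026) and none that passed against control. The differences from control after IFN-λ2 and after IFN-β share the same 2 control arrays.

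Growth genes were included because Slfn1 and Slfn2 are known as growth regulators. Of 13 tested, IFN-λ2 left 2 higher and 3 lower than control and IFN-β left 1 higher, and 1 was higher and 1 lower after IFN-λ2 than after IFN-β. Their median log2 differences were -0.06, 0.00043 and 0.03, and with so few genes nothing particular to this list is read from the counts. Ccnd1, the cyclin of the G1 phase, was higher by 1.94 after IFN-λ2 (adjusted p = 1.2e-05), by 0.43 after IFN-β (adjusted p = 0.047) and by 1.51 after IFN-λ2 than after IFN-β (adjusted p = 0.00014). Myc was the other gene higher after IFN-λ2 than in control, by 0.63 (adjusted p = 0.027). Top2a, Ccna2 and Cdkn1b were lower after IFN-λ2, by 0.36 to 0.57. Of 7 tested genes of enterocyte differentiation, the process to which Slfn3 has been linked, 3 were higher after IFN-λ2 and none after IFN-β, with Lct, the lactase, higher by 1.38 (adjusted p = 0.00094).

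**Figure D5:**
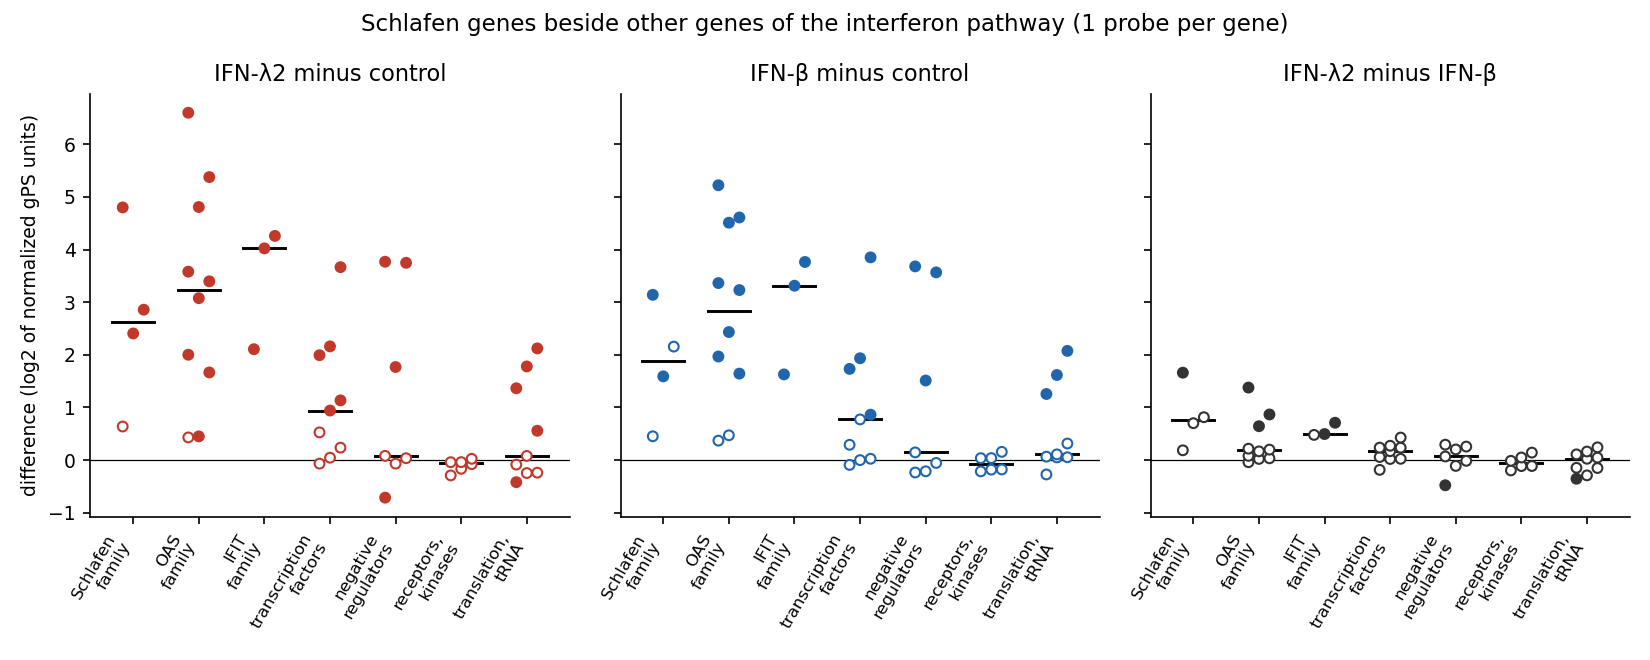
Log2 differences of the genes well above background on all arrays in the Schlafen family and in 6 lists of the interferon pathway and of translation, 1 point per gene, for IFN-λ2 minus control, IFN-β minus control and IFN-λ2 minus IFN-β. Filled points passed at an adjusted p under 0.05 and bars are medians. In the comparison of the cytokines, the differences of Slfn2 (1.66) and Oas2 (1.38) are the highest of the genes shown.

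Genes whose log2 signal followed a Schlafen probe most closely over the 8 arrays were taken from 16086 genes well above background on all arrays. This likeness is a description, since the arrays share the same 3 groups. For Slfn2 they were Spink2 (Pearson's r = 0.998), Psmb9, Iigp1, Ccdc25 (each 0.997) and Gm12250 (0.994). Psmb9 is a subunit of the immunoproteasome, and Iigp1 and Gm12250 belong to the interferon-inducible GTPases. Like Slfn2, Spink2, Psmb9, Iigp1 and Gm12250 passed in all 3 comparisons, with log2 differences between IFN-λ2 and IFN-β of 1.01, 0.76, 0.86 and 0.85. Ccdc25 passed only after IFN-λ2 against control (0.51, adjusted p = 0.0019). For Slfn10 they were ENSMUST00000116010 (0.997), ENSMUST00000113874, LOC630285 (both 0.996), Ly6e (0.994) and H2-Q10 (0.993), a class I histocompatibility gene. Each of these 5 was higher after IFN-λ2 than in control, and none passed between the cytokines. For Slfn8 they were Rrp9 (0.984), Wdr77, Cct2, Rpl19-ps6 and Eef1d (0.972 to 0.974), and none of these passed in any comparison. Their log2 differences between IFN-λ2 and control were 0.22 to 0.39. The Slfn8 signals hold the 7.31-fold gap between the control arrays, and how far these correlations rest on it was not tested.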

How the data were processed

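Per the file headers, the arrays were read out by Feature Extraction 10.7.3.1, and the authors deposited a background-subtracted intensity per feature and array, on a linear scale, with probe coordinates on mm9. They also deposited a value table of normalized intensities. Its values, whose column medians lay between 51.4 and 55.9, are linear and were found to be the same signals times a constant of 0.909 to 0.928 per array. This table was used as an alternative.

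Following the methods, features marked as outliers, beyond 1.42 interquartile ranges of their on-chip copies or with a pixel coefficient of variation above 0.5 were left out. Features of a probe were averaged geometrically, each array was brought to a 75th percentile of 1500, and values were raised to at least 15 before log2 was taken. Group means over all 8 arrays were compared with limma 3.58.1 in R 4.3.3 with Benjamini-Hochberg adjustment over the 25967 probes above 15 on at least 2 arrays. The fit was tested on simulated data. No probe was saturated. Having only 8 arrays, of which 2 are controls, limits the precision. Tables were made with Python 3.11.15.

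Every probe of the 8 genes is named, with the 5 genes most alike to each member that passed and was well above background on all arrays, the genes with the largest changes or a stated role in each list, and those of the genes within 500 kb that passed or lie next to the members. Members and lists were chosen with earlier results of these data known. Some genes of the lists are not reported here, and the counts leave them out. Arrays of IFN-λ2 and IFN-β with the same replicate number, which is also the slide, deviated together from their group means (Pearson's r over 25894 probes of 0.181, 0.257 and 0.297). For control arrays of replicates 2 and 3, r was -0.001 and -0.014 with IFN-λ2 and 0.099 and -0.063 with IFN-β. The deviations of only 2 control arrays mirror each other, so that these values say little about a shared slide effect. As in the methods, the fits have no block, and the replicate block is an alternative. The labels name Trizol for RNA extraction and the methods a silica membrane kit. Alternatives were normexp, quantile normalization, other thresholds and filters, no feature left out, the deposited table, the block, the groups compared alone, another variance prior, stricter call rules, 1 probe per gene and each array left out.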

Additional observations from a re-analysis of the deposited data

How the results depend on the processing

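For the 18 probe and comparison pairs tested, 339 alternative fits were made. None reversed a direction, 307 kept the side of the threshold, 20 lost a call and 12 gained one. Of the 20, 11 concern Slfn10 after IFN-β and 9 Slfn8 after IFN-λ2. Slfn2 kept its calls in all 3 comparisons under its 19 alternatives each, with log2 differences from 4.15 to 4.87, 2.54 to 3.19 and 1.60 to 1.76. The number of Schlafen probes higher after IFN-β, 2 in the fit reported, was 1 with all non-control probes kept, with the replicate block, and with only the groups compared, and it was between 1 and 2 when an array was left out. The cause was not tested. The counts after IFN-λ2 and between the cytokines, and the 48 calls over the pathway lists, stayed within 1.5 times under all alternatives run. These counts and fits include Slfn4, which entered the test only through its IFN-λ2 arrays. With no lower threshold, Slfn4 was also called higher after IFN-β than in control (log2 difference 1.69, adjusted p = 0.040). The call of Slfn10 after IFN-β was lost there (adjusted p = 0.053), so that the count stayed at 2. With the replicate block the calls of Slfn8 after IFN-λ2 and Slfn10 after IFN-β were lost, and no other call of a Schlafen probe changed. A slide or scan block apart from the replicate number could not be run, since they are identical. Signals near background limit what can be read from Slfn1, Slfn3, Slfn4 and Slfn5.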
